A study of Sus scrofa with 3 samples.

Results

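The adipokines leptin (LEP), adiponectin (ADIPOQ), resistin (RETN), NAMPT, RBP4 and chemerin (RARRES2) were followed in visceral adipose tissue (VAT) together with the receptors LEPR, ADIPOR1, ADIPOR2 and CMKLR1. These 10 genes were chosen by name as hormones of fat and their receptors, and all 10 are among the 22826 mRNA genes of the series. The tissue was retroperitoneal fat of male Wuzhishan miniature pigs, a small Chinese breed, received at 6 to 7 months of age. The pigs were kept for 7 weeks on a standard diet and then for 12 weeks on an HFC diet, rich in fat and cholesterol. Intact pigs (IM) had skin incisions only, CM pigs were castrated, and CMT pigs were castrated and injected each week with testosterone propionate at 10 mg/kg body weight. RNA of the pigs of a group was pooled, from 4 animals by the methods of the study and from 4 to 6 by the sample labels, and 1 library per group was sequenced. No difference between these libraries therefore has a replicate check, and the 3 comparisons share libraries: CM against IM, CMT against CM and CMT against IM.

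Leptin is made by adipocytes in proportion to their fat stores and acts through LEPR on appetite and energy use. Adiponectin is an abundant adipocyte hormone that acts through ADIPOR1 and ADIPOR2, which are linked to AMPK and PPARA signalling, and it is usually lower in obesity. Chemerin attracts immune cells that carry CMKLR1 and also acts on adipocytes. RBP4 carries retinol in the blood and is made mainly by the liver and also by fat, NAMPT is a NAD-producing enzyme that is also secreted as visfatin, and resistin is a small secreted protein of fat or immune cells, depending on the species.

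Levels are given in UQRPKM, reads per kilobase of gene with each library scaled to its own upper quartile, so that genes can be compared per length. The reads behind each value were recovered from the steps between values, and came to 15106608 to 16611931 per library on all genes. The 95% intervals below were computed from these reads. They cover counting error only, with each read taken as independent, and they hold no spread between pigs. Amplified reads do not each stand for a separate molecule, so the intervals may be too narrow even for counting error. A gene was called higher or lower at a 1.5-fold difference or more with 1 UQRPKM or more in each of the libraries compared. These limits are those of the study, without its test. The labelled tissue was checked with adipocyte markers. Of 13 that were found, 12 were above 0 in every library, and only CIDEA was listed at 0. Their summed level was 93056 (IM), 91652 (CM) and 68958 UQRPKM (CMT). In bulk tissue, fewer cells of a type and less RNA per cell cannot be told apart.

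Of the 10 members, 7 had values above 0 in every library, comprising 4 of 6 hormones and 3 of 4 receptors. LEPR, RETN and RARRES2 were listed at 0 throughout. Such a listing is not evidence of absence, because the same held for 6 of 66 genes named as ribosomal proteins, while the other 60 had a median of 11386 UQRPKM in IM. LEPROT, a neighbour of LEPR that shares its first exons in mammals, had 951 (IM), 1010 (CM) and 960 UQRPKM (CMT). It is named although it is not a member, because reads from overlapping transcripts may be split between the genes.

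LEP differed most among the members. The sequences of the primer pair that the study designed for LEP are shown because they fix the stretch of LEP mRNA read by its qRT-PCR, which was not analysed here. They are written 5′ to 3′ in lower case throughout, and their positions in the genome were not determined.
LEP forward: tgtggctttggccctatctg
LEP reverse: gatggagcccagggatgaag

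LEP had 167 (IM), 502 (CM) and 156 UQRPKM (CMT), from 558, 1600 and 511 reads. The CM library stood apart, and the counting intervals of IM (153 to 181) and CMT (143 to 170) overlapped. In CM against IM the log2 ratio was 1.59 (95% interval 1.45 to 1.73), a 3.01-fold higher level. For CMT against CM it was -1.69 (-1.83 to -1.54), which put CM 3.22-fold above CMT. For CMT against IM it was -0.098 (-0.27 to 0.078), and its sign turned under scaling by total mRNA reads or by adipocyte markers. Among the 10216 mRNA genes with at least 50 reads in both CM and IM, 22 had a log2 ratio as high as that of LEP or higher, LEP included. Between CMT and CM, 16 of 10171 had one as low or lower. LEP was at the 73.2nd percentile of the genes above 0 in IM, at the 89.3rd in CM and at the 73.1st in CMT. LEP was the one member called higher in CM against IM as well as CMT, a pattern found in 3.48% of 13858 mRNA genes.

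**Figure D1:**
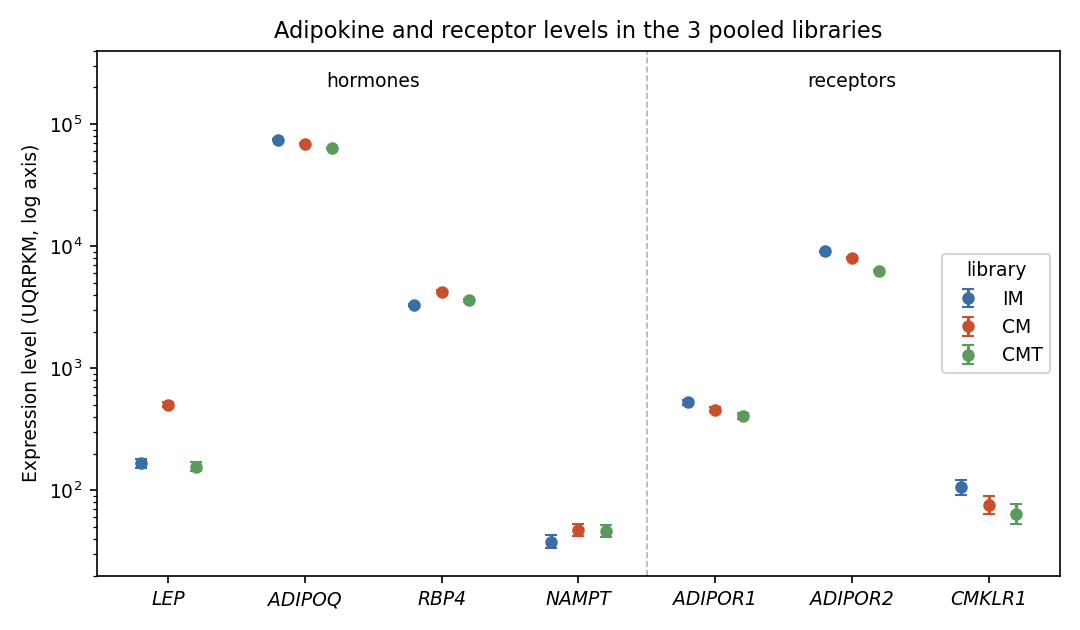
Levels of the 7 members above 0 in UQRPKM on a log axis, with hormones on the left and receptors on the right. Points are the single IM, CM and CMT libraries and bars are 95% counting intervals, which are smaller than the points for the abundant genes. LEP is high in CM at 502 UQRPKM, against 167 in IM and 156 in CMT.

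ADIPOQ, the most abundant member, had 74928 (IM), 69193 (CM) and 63873 UQRPKM (CMT). It held rank 4 among mRNA genes in IM and rank 5 in CM and in CMT. Its levels lay within a narrow range in which IM was highest and CMT lowest. The log2 ratio was -0.11 (-0.13 to -0.099) in CM against IM and -0.12 (-0.13 to -0.099) in CMT against CM. Between CMT and IM it was -0.23 (-0.25 to -0.21). None of these passed 1.5-fold. Relative to the adipocyte markers, the ratio of ADIPOQ turned to 0.35 in CMT against CM and 0.16 in CMT against IM.

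The adiponectin receptors were lowest in CMT as well. ADIPOR1, a receptor linked to AMPK, had 526 (IM), 459 (CM) and 410 UQRPKM (CMT), from 1655, 1378 and 1264 reads. Its log2 ratio was -0.19 (-0.30 to -0.091) in CM against IM, -0.16 (-0.28 to -0.053) in CMT against CM and -0.36 (-0.47 to -0.25) in CMT against IM. ADIPOR2, the receptor linked more to PPARA, had 9122, 8043 and 6307 UQRPKM in IM, CM and CMT. The levels of ADIPOR2 in the 3 libraries did not overlap in their counting intervals. The log2 ratio of ADIPOR2 was -0.18 (-0.20 to -0.16) in CM against IM, -0.35 (-0.37 to -0.33) in CMT against CM and -0.53 (-0.55 to -0.51) in CMT against IM. The last of these, 1.45-fold lower in CMT, lay just under the 1.5-fold limit. Relative to the adipocyte markers, the ratios of both receptors in CMT against CM turned positive, at 0.31 for ADIPOR1 and 0.12 for ADIPOR2. In CMT against IM that scaling put ADIPOR1 at 0.032 and ADIPOR2 at -0.14. ADIPOR1 and ADIPOR2 are related in sequence, and how reads that fit both were counted is not given in the sources used here.

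CMKLR1, the chemerin receptor of macrophages and other immune cells, had 106 (IM), 76.3 (CM) and 64.6 UQRPKM (CMT), from 193, 132 and 115 reads. IM was highest, and the counting intervals of CM (63.8 to 90.4) and CMT (53.3 to 77.6) overlapped. The log2 ratio was -0.48 (-0.81 to -0.15) in CM against IM and -0.24 (-0.61 to 0.13) in CMT against CM. For CMT against IM it was -0.72 (-1.06 to -0.38), a 1.64-fold lower level in CMT that was called. The call was lost when the libraries were scaled by adipocyte markers, where the ratio was -0.33. The summed level of 12 macrophage markers was 8271 (IM), 7227 (CM) and 6711 UQRPKM (CMT). Of these 12, CD163 was listed at 0 in all libraries, and the remaining 11 were above 0 in each. C1QA and C1QC carried this sum, and single markers were split, with 5 of the 11 highest in CM, 3 in IM and 3 in CMT. EMR1, the macrophage surface protein F4/80, had 45.6 (IM), 93.6 (CM) and 30.6 UQRPKM (CMT), and LOC100520753, the gene of CD68, had 17.2, 42.9 and 22.2 UQRPKM. These were the 2 called higher in CM against IM, and both were called lower in CMT against CM, together with ITGAM. EMR1 and LOC100520753 were thus highest in CM, as LEP was and CMKLR1 was not. Scaling by adipocyte markers ended the calls of LOC100520753 (-0.48) and ITGAM (-0.44) in CMT against CM, and put MRC1 higher there. Between CMT and IM none of the 11 was called, but scaling by adipocyte markers put 4 of them higher in CMT. The part of macrophage content in the CMKLR1 values was not tested.

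RBP4 had 3291 (IM), 4246 (CM) and 3611 UQRPKM (CMT), from 6253, 7687 and 6722 reads. CM was highest and IM lowest, with no overlap of the counting intervals. The log2 ratio was 0.37 (0.32 to 0.42) in CM against IM, -0.23 (-0.28 to -0.19) in CMT against CM and 0.13 (0.084 to 0.18) in CMT against IM, all under 1.5-fold. Scaling by adipocyte markers turned the ratio in CMT against CM to 0.24. Of the 15 hepatocyte markers, 14 were also highest in CM, and the exception was APOA1, at 2539 (IM), 2339 (CM) and 1714 UQRPKM (CMT). All 15 were above 0 in CM, against 9 in IM and 7 in CMT. Their summed level was 10885 UQRPKM in CM against 2560 in IM and 1737 in CMT. APOA1 carried nearly all of the sum in IM and in CMT but not in CM, so the sums understate how far the other markers differed. ALB, the serum albumin of the liver, had 2.61 (IM), 2910 (CM) and 4.00 UQRPKM (CMT). TTR, the plasma partner of RBP4 and itself 1 of the hepatocyte markers, had 5.76, 640 and 4.70 UQRPKM in IM, CM and CMT. The excess of RBP4 in CM over IM was 954 UQRPKM. The part of liver RNA in the RBP4 values was not tested.

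NAMPT, the least abundant member above 0, had 38.0 (IM), 47.7 (CM) and 46.5 UQRPKM (CMT), from 271, 324 and 325 reads. The intervals of CM (42.7 to 53.2) and CMT (41.6 to 51.9) overlapped, and IM was lowest. The log2 ratio was 0.33 (0.090 to 0.57) in CM against IM and 0.29 (0.054 to 0.53) in CMT against IM. In CMT against CM it was -0.036 (-0.26 to 0.19), with a positive sign under scaling by total mRNA reads or by adipocyte markers. NAMPT passed 1.5-fold only in CMT against IM under scaling by adipocyte markers, at 0.68.

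**Figure D2:**
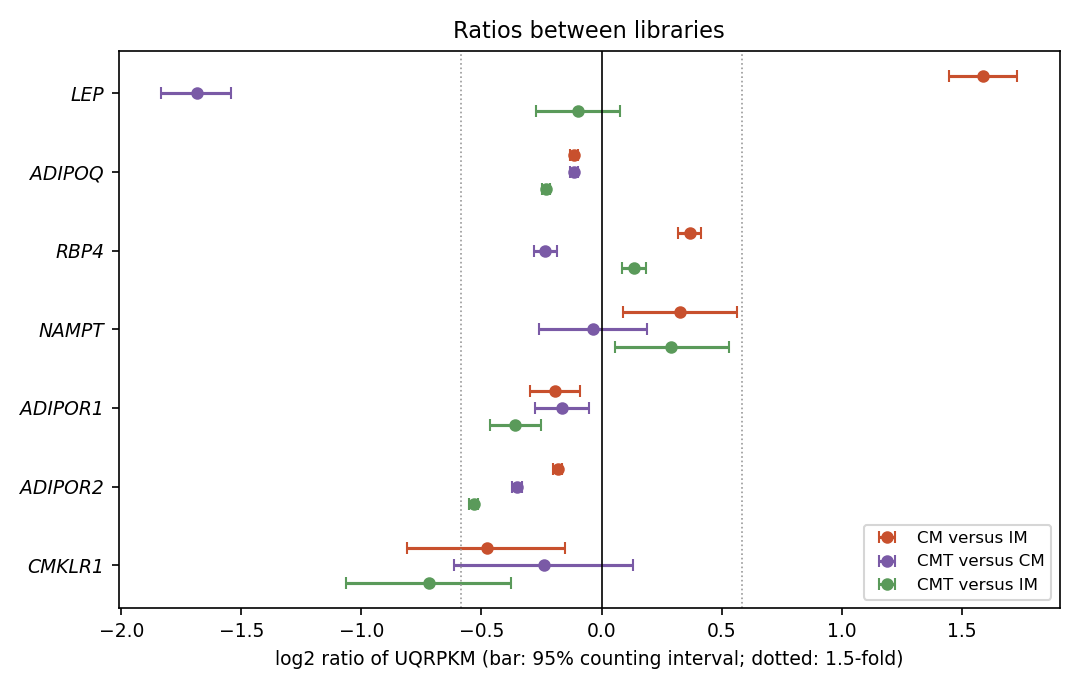
Log2 ratios of UQRPKM of the 7 members above 0 in the 3 comparisons. Points are ratios between single libraries, bars are 95% counting intervals and dotted lines mark 1.5-fold. LEP lies outside the dotted lines in CM against IM (1.59) and CMT against CM (-1.69), and CMKLR1 in CMT against IM (-0.72).

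Counted together, 1 of the 7 members was called in each comparison. In CM against IM, LEP was called higher and none lower. Over all mRNA genes, 18.8% were called in either direction and 8.38% higher. For CMT against CM, LEP was called lower and none higher, against 19.5% of all genes called and 9.97% lower. In CMT against IM, CMKLR1 was called lower and none higher, against 20.7% of all genes called and 11.9% lower. All 7 members had at least 50 reads in each library. Of the genes with at least 50 reads in both libraries, 7.66%, 8.18% and 9.92% were called in CM against IM, CMT against CM and CMT against IM, respectively. The counting interval of the log2 ratio lay on one side of 0 for 7, 5 and 6 of the 7 members in these comparisons. Over all genes with at least 50 reads in both libraries, this held for 49.8%, 44.2% and 52.8%. With 7 members, 1 called gene is near the background, and no more is read from these counts.

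Hormones and receptors were set side by side. In CM against IM, 3 of 4 hormones (LEP, RBP4 and NAMPT) had log2 ratios above 0, and the exception was ADIPOQ. All 3 receptors had log2 ratios below 0, as did 58.7% of all mRNA genes with at least 50 reads in both libraries. The signs of the 7 members did not turn under any of the 3 other scalings. The median log2 ratio was 0.35 for the hormones and -0.19 for the receptors, against -0.06 over 14123 mRNA genes. Between CMT and CM all 7 members had ratios below 0 as deposited, beside 53.4% of all mRNA genes with at least 50 reads in both. The medians were -0.17 for the hormones and -0.24 for the receptors, against -0.02 over 14098 mRNA genes. Scaling by adipocyte markers turned the sign of every member except LEP, and scaling by total mRNA reads turned NAMPT. For CMT against IM the medians were 0.018 for the hormones and -0.53 for the receptors, against -0.08 over 14151 mRNA genes. Scaling by adipocyte markers raised every ratio there by 0.39, hormones and receptors alike. It turned LEP, ADIPOQ and ADIPOR1 positive and put ADIPOR2 at -0.14 and CMKLR1 at -0.33. Scaling by total mRNA reads turned LEP. ADIPOQ, ADIPOR1, ADIPOR2 and CMKLR1, 4 of the 7 members, were highest in IM and lowest in CMT, an order that 25.7% of 10046 mRNA genes with at least 50 reads in every library showed.

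The ratio of a hormone to its receptor within a library does not depend on how the library is scaled. Of the 4 pairs, LEP to LEPR and RARRES2 to CMKLR1 gave no ratio because 1 gene of each was listed at 0. ADIPOQ exceeded ADIPOR1 142-fold (IM), 151-fold (CM) and 156-fold (CMT). The difference in this log2 ratio was 0.080 (-0.025 to 0.19) in CM against IM and 0.049 (-0.063 to 0.16) in CMT against CM, so a difference was not detectable at this depth. Between CMT and IM it was 0.13 (0.021 to 0.24). ADIPOQ exceeded ADIPOR2 8.21-fold in IM, 8.60-fold in CM and 10.1-fold in CMT. This ratio was highest in CMT, by 0.24 (0.21 to 0.26) on the log2 scale over CM and by 0.30 (0.28 to 0.33) over IM. In CM against IM the difference was 0.067 (0.042 to 0.092).

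Ratios between other members, picked after their values had been seen, separated LEP from ADIPOQ. The level of LEP was 0.00223 (IM), 0.00726 (CM) and 0.00244 (CMT) of that of ADIPOQ. The log2 ratio of LEP to ADIPOQ was higher in CM than in IM by 1.70 (1.56 to 1.85), and the difference of CMT from CM was -1.57 (-1.72 to -1.43). In CMT against IM it was 0.13 (-0.044 to 0.31). The ratio of RBP4 to ADIPOQ was higher in CM than in IM by 0.48 (0.43 to 0.53) and in CMT than in IM by 0.36 (0.31 to 0.42). ADIPOR2 exceeded ADIPOR1 17.3-fold in IM, 17.5-fold in CM and 15.4-fold in CMT, with a difference of -0.19 (-0.30 to -0.073) in CMT against CM.

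**Figure D3:**
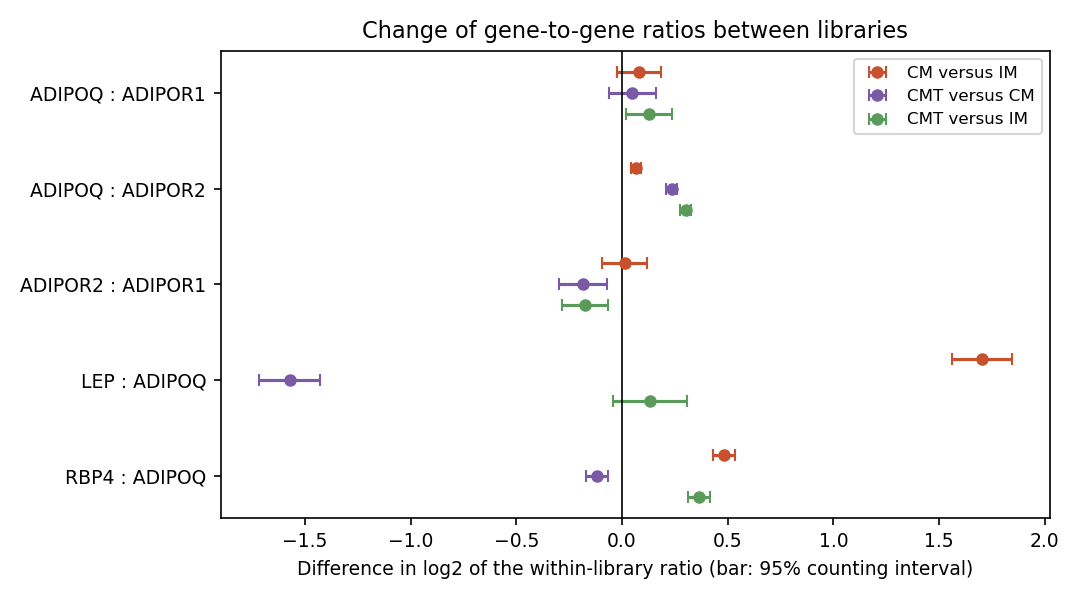
Differences between libraries in the log2 ratio of 2 genes measured in the same library, with 95% counting intervals as bars. The ratio of LEP to ADIPOQ is higher in CM than in IM by 1.70 and the difference of CMT from CM is -1.57, while the differences for ADIPOQ to ADIPOR1 and ADIPOR2 lie between 0.049 and 0.30.

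By level, the members ranked in the order ADIPOQ, ADIPOR2, RBP4, ADIPOR1, LEP, CMKLR1 and NAMPT in IM and in CMT. In CM, LEP stood above ADIPOR1 by 1.09-fold, and their counting intervals overlapped. No other neighbours in the order overlapped in any library. The gap between CMKLR1 and NAMPT was 2.79-fold in IM, 1.60-fold in CM and 1.39-fold in CMT.

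Genes that act with the members were followed as 7 lists, the last of which holds further adipokines. Over the lists together, 11 genes were called higher and 7 lower of 64 in CM against IM (28.1%), 1 and 9 of 63 in CMT against CM (15.9%), and 8 and 13 of 64 in CMT against IM (32.8%), beside 18.8%, 19.5% and 20.7% over all mRNA genes. Of 14 leptin signalling genes, 12 were at 1 UQRPKM or more in both libraries of each comparison. As deposited, STAT5A, a transcription factor activated by JAK2, was the one called. STAT5A had 309 (IM), 193 (CM) and 125 UQRPKM (CMT), and was called lower in all 3 comparisons. The call in CMT against CM was lost when scaled by total mRNA reads or by adipocyte markers, the latter with a log2 ratio of -0.16. JAK2 and STAT3 were not called as deposited, and SOCS3, the feedback inhibitor of leptin signalling, was listed at 0. Scaling by adipocyte markers put STAT3, PTPN2 and IRS1 higher in CMT against CM, with log2 ratios of 0.66, 0.996 and 0.63.

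In the list of adiponectin receptors, assembly and signalling, 9 genes could be compared. PPARA, a fatty acid sensor that raises fat oxidation, was the one called in CM against IM, at 37.1 (IM), 79.4 (CM) and 58.7 UQRPKM (CMT). For CMT against IM, PPARA and ERO1L, an oxidase of the endoplasmic reticulum that takes part in adiponectin assembly, were called higher, with log2 ratios of 0.66 and 0.65. None was called in CMT against CM as deposited, and ERO1L was called higher there under scaling by adipocyte markers. CDH13, the T-cadherin that binds adiponectin, is named outside the rule for named genes. It had 1185 (IM), 1056 (CM) and 930 UQRPKM (CMT), and was not called. ADIPOR1 and ADIPOR2 had the same order, as did 25.7% of mRNA genes with at least 50 reads in every library. Scaling by adipocyte markers, a shift of 0.47 in CMT against CM, turned the ratio of CDH13 there positive.

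Among chemerin receptors and processing proteases, 6 genes could be compared and 3 were called higher in CM against IM. The other chemerin receptors stood opposite to CMKLR1 there. CCRL2 had 13.3 (IM), 25.4 (CM) and 19.4 UQRPKM (CMT), from 33, 60 and 47 reads. GPR1 had 11.7, 21.6 and 20.1 UQRPKM, from 41, 72 and 69 reads. The log2 ratios in CM against IM were 0.93 (0.30 to 1.59) for CCRL2 and 0.88 (0.31 to 1.47) for GPR1. CPB2, a carboxypeptidase made by the liver, had 5.97, 51.0 and 2.18 UQRPKM in IM, CM and CMT, highest in CM like the hepatocyte markers. In CMT against CM only CPB2 of the 6 genes was called, lower, while scaling by adipocyte markers also put CTSS and CTSL higher there. PLG, of the same list, had 0 (IM), 175 (CM) and 0.495 UQRPKM (CMT), from 0, 688 and 2 reads. It was also highest in CM, but the limit of 1 UQRPKM kept it out of the comparisons. Between CMT and IM GPR1 was called higher and CPB2 lower, from 5 and 14 reads for CPB2. CCRL2, with a log2 ratio of 0.54 there as deposited, was called higher under each of the 3 other scalings. CTSS was called higher there under scaling by adipocyte markers only.

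Of 15 genes of retinol carriage and retinoid handling, 7 could be compared in CM against IM. TTR was called higher and ALDH1A2, which makes retinoic acid, lower, at 488 (IM), 267 (CM) and 286 UQRPKM (CMT). For CMT against CM, TTR and CRABP2 were called lower of 7 genes, and scaling by adipocyte markers also put RARG higher. In CMT against IM, 4 of 8 genes were called lower, namely ALDH1A2, CRABP1, CRABP2 and RBP7, and none higher. Over all mRNA genes, 11.9% were called lower there. Scaling by adipocyte markers left 1 of these 4 calls, CRABP1, which rests on 6 reads in CMT and 20 in IM. It put ALDH1A2 at -0.38, CRABP2 at -0.42 and RBP7 at -0.38. CRABP2, a retinoic acid carrier, had 56.8, 77.9 and 32.3 UQRPKM in IM, CM and CMT. STRA6, the RBP4 receptor, was not analysed here.

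Of 3 genes of resistin binding and signalling, LY96, a partner of TLR4, was called higher in CM and in CMT than in IM, at 97.0, 150 and 175 UQRPKM in IM, CM and CMT, and its call in CM against IM was lost under scaling by adipocyte markers. For NAD synthesis and use, 9 genes could be compared in CM against IM. NMRK1, a kinase that feeds NAD synthesis from nicotinamide riboside, was called higher with a log2 ratio of 0.73 (0.44 to 1.03), and NMNAT2 lower with -0.62 (-0.96 to -0.29). For CMT against IM, 2 of 8 were called higher and 3 lower, among them BST1 with 0.69 (0.48 to 0.91) and NMNAT2 with -0.80 (-1.14 to -0.46). Between CMT and CM NMNAT1 was called lower on 15 and 28 reads, and its interval included 0. Scaling by adipocyte markers ended the calls of NMNAT1 in CMT against CM and of NMNAT2 in CMT against IM. The call of SIRT3 in CMT against IM was lost under each of the 3 other scalings. That of NMNAT2 in CM against IM was lost under scaling by total mRNA reads or the median ratio. Adipocyte marker scaling also put LY96, SIRT1 and BST1 higher in CMT against CM. It put NMRK1 higher in CMT against IM and SIRT3 lower in CM against IM.

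Genes with a pattern most like that of a member were sought among 8541 mRNA genes with at least 100 reads in every library, by the distance between log2 ratios to IM over the 3 libraries. The nearest to LEP were CCL23, LOC100520848, HK3, O3FAR1 and PMPCB, at distances of 0.14 to 0.43. CCL23, a chemokine, had 240 (IM), 796 (CM) and 225 UQRPKM (CMT). O3FAR1, a receptor for long-chain fatty acids, had 246, 570 and 243 UQRPKM. The nearest to CMKLR1 were LOC100626010, CD300LG, MYADM, NOTCH3 and MCAM, at distances of 0.019 to 0.025. MCAM, a surface protein of vessels, had 550, 402 and 333 UQRPKM in IM, CM and CMT. With 1 library per group, such likeness rests on 3 values per gene.

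Other cell type markers differed between the libraries in which the members differed. The summed level of 6 neutrophil markers was 504 (IM), 4883 (CM) and 964 UQRPKM (CMT), so it was highest where LEP was highest. S100A8, S100A9 and S100A12 carried this sum, while CSF3R was listed at 0 in all libraries and CXCR2 stood at 5.08, 4.69 and 4.35 UQRPKM. The 13 skeletal muscle markers summed to 114 (IM), 97.3 (CM) and 7267 UQRPKM (CMT), with TNNT3 and CKM listed at 0 throughout. The 7 stromal markers summed to between 61666 and 66324 UQRPKM, a sum carried by COL3A1. Of these, COL1A1, a chain of type I collagen, was called lower in CM and in CMT than in IM, at 4453, 2235 and 2580 UQRPKM in IM, CM and CMT, although its call in CMT was lost under scaling by adipocyte markers. DPT, a matrix protein of fibroblasts, was called higher in CMT against IM and CM alike, at 4519, 3728 and 7505 UQRPKM, and PDGFRA was called higher in CMT than in IM. The 6 endothelial markers summed to between 7717 and 8663 UQRPKM, with none called as deposited. TIE1 had 15.2 (IM), 14.7 (CM) and 0 UQRPKM (CMT), from 13, 12 and 0 reads. The limit of 1 UQRPKM kept TIE1 out of the comparisons with CMT. Scaling by adipocyte markers put PECAM1 and TEK higher in CMT against CM. Among the 12 adipocyte markers above 0, SLC2A4, the insulin-dependent glucose transporter, was called higher in CM against IM. In CMT against CM, PLIN4, GPD1, AQP7 and SLC2A4 were called lower, GPD1 and AQP7 not so under scaling by total mRNA reads, and the median log2 ratio of the 12 was -0.44. Relative to adipocyte markers, the log2 ratio of LEP was 1.51 in CM against IM and -1.22 in CMT against CM, the latter outside its interval as deposited. The part of these cell types in the member values was not tested.

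**Figure D4:**
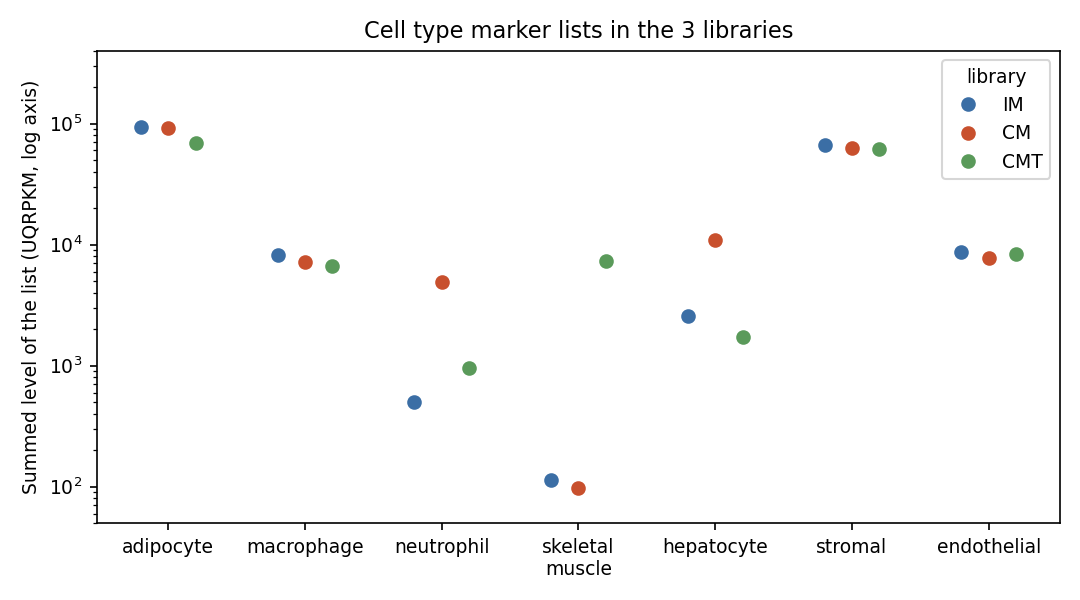
Summed UQRPKM, on a log axis, of 7 lists of cell type markers in the single IM, CM and CMT libraries. Neutrophil and hepatocyte sums are highest in CM at 4883 and 10885, and the hepatocyte sums of IM and CMT are carried by APOA1. The skeletal muscle sum is highest in CMT at 7267, and the adipocyte sum is lowest in CMT at 68958.

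**Figure D5:**
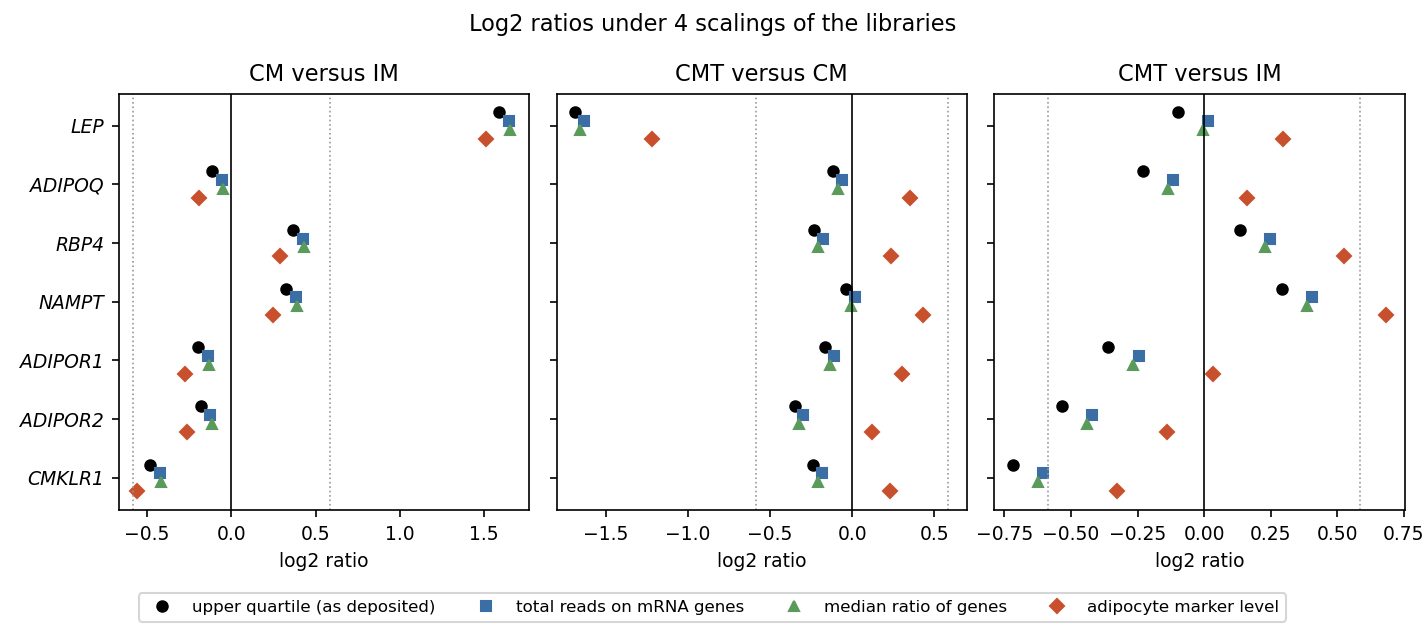
Log2 ratios of the 7 members above 0 under 4 ways of scaling the libraries, with 1 panel per comparison, its own horizontal axis and dotted lines at 1.5-fold. LEP stays outside the dotted lines in CM against IM (1.51 to 1.65) and CMT against CM (-1.69 to -1.22), and the adipocyte marker scaling moves every other member to the right of 0 in CMT against CM.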

How the data were processed

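Total RNA of VAT was pooled per group, and the 3 libraries (IM, CM and CMT) were read from one end by Ion Proton sequencing. MapSplice was used by the authors to place filtered reads on Sscrofa 10.2. The deposited unit is a form of RPKM, termed UQRPKM, in which the upper quartile of a library takes the place of its total. The counting tool and annotation are not given in the sources used here. No coordinates are given, because the gene table at hand describes another build. Groups were taken from the sample titles.

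Reads were recovered as the smallest whole numbers that fit the values of a gene in all libraries at 1 gene length of up to 120000 bases. Upper quartiles of 149, 142 and 146 for IM, CM and CMT were found from the steps between low values. Only their ratios were found in this way, and they are given as the smallest whole numbers. The 75th percentiles of the recovered reads over all genes were 138, 132 and 136. Of 20838 genes above 0, 100% were fitted by whole numbers, to a relative error of 7.65e-09 at most. Reads that share a factor with the length come out too low, and their intervals then too wide. The step was tested on simulated data made with the same upper quartiles, so that test cannot check their size. Reads were used for intervals and filters only. Intervals of ratios are exact Clopper-Pearson, those of levels exact Poisson and those of gene-to-gene ratios exact conditional intervals of the odds ratio, computed with Python 3.11.15 and SciPy 1.17.1.

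No test of the groups was possible with 1 library per group, and no p-value is given. Log2 ratios are of UQRPKM without a pseudocount. Alternatives were scaling by total mRNA reads, by the median ratio of 8541 genes with at least 100 reads in each library or by the geometric mean of 12 adipocyte markers, pseudocounts of 1 and 10, a fold of 2, other filters and all gene types. All 10 members were named. At most 4 genes of each list were named by the rule, those with the largest log2 ratio in any comparison among genes called with at least 20 reads over both libraries. Exceptions to this rule are genes listed at 0, genes given as not called or not analysed and genes completing a count of 5 or fewer. Further exceptions are genes that carry a summed level or are called in a comparison only under another scaling, CDH13, LEPROT, PLG, TIE1 and CXCR2. The members and lists were chosen with earlier results of these data known.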

Additional observations from a re-analysis of the deposited data

How the results depend on the processing

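Each group is 1 pooled library, so differences between pigs and between conditions cannot be told apart, and intervals cover counting only. LEP was called in CM against IM and in CMT against CM under all alternatives run. CMKLR1 in CMT against IM was called under the other alternatives, but with a fold of 2 the members called lower numbered 0. Scaling by adipocyte markers, which shifts every gene by 0.47 in CMT against CM and 0.39 in CMT against IM on the log2 scale, left 0 members called lower and 1 called higher (NAMPT) in CMT against IM. The same scaling gave 4794 higher and 533 lower of all mRNA genes in CMT against CM, against 1343 and 1406 as deposited, and 3490 and 617 in CMT against IM, against 1246 and 1690. It gave 17 higher and 4 lower pathway genes in CMT against CM, against 1 and 9, and 15 and 4 in CMT against IM, against 8 and 13. A minimum of 50 reads in both libraries left 6 of 11 pathway genes higher in CM against IM, and 0 of 1 higher and 3 of 9 lower in CMT against CM, since fewer genes are then compared. The other 100 counts and hormone to receptor differences stayed within 1.5 times or within their intervals. Of 105 alternative log2 ratios of single members, 35 left their counting interval, and no called ratio changed sign. No paired analysis was possible because each group is 1 library.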

Other observations

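A further list of adipokines, which were not members, showed calls in both directions. Of 26 genes, 18 could be compared in each comparison. In CM against IM, 4 were called higher (LCN2, SFRP5, NUCB2 and IL18) and 4 lower (TNF, ANGPTL4, DPP4 and C1QTNF3), with a median log2 ratio of 0.16. LCN2, the lipocalin of neutrophils and fat, had 309 (IM), 770 (CM) and 467 UQRPKM (CMT), and its log2 ratio was 1.32 (1.18 to 1.45) in CM against IM. SFRP5, an adipokine that binds Wnt ligands, had 1682, 2628 and 938 UQRPKM from 2932, 4366 and 1603 reads. SFRP5 was highest in CM, and its log2 ratio in CMT against IM was -0.84 (-0.93 to -0.75). Scaling by adipocyte markers put SFRP5 under 1.5-fold in CM against IM (0.57) and in CMT against IM (-0.45), and NUCB2 in CM against IM (0.52). C1QTNF3, a relative of adiponectin, was called lower in CM, at 21.5 (IM), 10.6 (CM) and 12.1 UQRPKM (CMT). DPP4, a membrane peptidase also shed by fat, had 14.3, 8.81 and 18.8 UQRPKM from 51, 30 and 66 reads.

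In CMT against CM, 1 of the 18 was called higher (DPP4) and 4 lower (LCN2, SFRP5, FNDC5 and IL18). In CMT against IM, LCN2 and NUCB2 were called higher, and TNF, APLN, SFRP5 and C1QTNF3 lower. Under scaling by adipocyte markers, the calls of LCN2, FNDC5 and IL18 in CMT against CM and of all 4 genes lower in CMT against IM were lost. Other genes were newly called higher. ANGPTL4, C1QTNF2, C1QTNF3, C1QTNF7, NUCB2 and METRNL were so in CMT against CM, and AGT, DPP4, C1QTNF7 and METRNL in CMT against IM. With this scaling, 7 genes were higher and 1 lower in CMT against CM, and 6 and 0 in CMT against IM.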
